A study of Mus musculus with 11 samples.

Results

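Transcripts of 10 hepcidin and iron handling genes were followed in mouse gastric corpus mucosa by bulk RNA sequencing. The 10 are the hepcidin genes Hamp and Hamp2, the iron exporter ferroportin (Slc40a1), transferrin receptor (Tfrc), the divalent metal transporter DMT1 (Slc11a2), transferrin (Trf), the ferritin heavy and light chains (Fth1 and Ftl1), the ferrireductase Steap3 and the ferroxidase ceruloplasmin (Cp). They are 10 of the 34866 genes in the deposited table, and each of the 10 passed the filter on low counts. Hamp2 was chosen by its measured level in these samples, which had been seen to drop together with parietal cells, so its levels are given as a description with no test. The other 9 were listed by name.

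The 11 samples came from 4 genotypes, with 2 samples of wild-type mice (control). ATP4B-DTR, GIF-DTR and their combination GIF/ATP4B-DTR had 3 samples each. DTR is the diphtheria toxin receptor, which makes the mouse cells that carry it sensitive to the toxin. Atp4b encodes a subunit of the proton pump of parietal cells, the acid-secreting cells of the corpus, and GIF is gastric intrinsic factor, a chief cell product in the mouse. The lines are described by the series as models for the ablation of parietal and chief cells. The labels used here give no toxin dose, time, age, strain or sex, and do not say whether the samples of a group came from separate animals. The p-values below therefore measure the spread between these samples, which may be partly technical.

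Hepcidin is a small peptide hormone, made mainly by the liver, that binds ferroportin and causes its removal from the cell surface, so that less iron leaves the cell. The mouse genome holds a pair of hepcidin genes, and Hamp is the one known as the regulator of body iron. Cells take up transferrin-bound iron through the transferrin receptor, reduce it with Steap3, move it out of endosomes with DMT1 and store it in ferritin shells of heavy and light chains. When iron is scarce, iron regulatory proteins bind hairpins called iron-responsive elements, which protects the Tfrc transcript from decay and blocks translation of ferritin and ferroportin. Changes in translation are not seen by RNA sequencing.

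Matches to the regular form of this hairpin are shown because they carry the known response of these transcripts to iron. The transcripts of GENCODE M21 (genome GRCm38) were searched on the sense strand for 17 letters in a row: C, then NNNNN, the loop CAGTGN and NNNNN, with the 5 bases on each side of the loop paired and G-T pairs allowed. Capitals mark the loop.
Slc40a1: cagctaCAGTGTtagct
Fth1: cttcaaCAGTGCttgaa
Ftl1: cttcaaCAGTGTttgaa
Tfrc hairpin a: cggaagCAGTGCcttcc
Tfrc hairpin b: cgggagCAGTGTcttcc
Tfrc hairpin c: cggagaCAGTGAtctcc
Tfrc hairpin d: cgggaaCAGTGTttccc
The Slc40a1 match lay in the 5′ UTR at chr1:45925471-45925487 on the minus strand, the Fth1 match in the 5′ UTR at chr19:9982738-9982754 on the plus strand, and the Ftl1 match in the 5′ UTR at chr7:45459785-45459801 on the minus strand. The Tfrc matches all lay in the 3′ UTR on the plus strand, from chr16:32631225-32631241 to chr16:32631716-32631732. In all, 4 of the 10 members held 7 such matches in their first annotated transcript, against 294 of 21901 coding genes (1.34%) with a match in any transcript. The search found no match in any annotated coding transcript of Hamp, Hamp2, Slc11a2 (6 transcripts), Trf, Steap3 or Cp, which says only that these letters are not there. Slc11a2 is known for an element of irregular stem in the 3′ UTR of some of its transcripts.

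Hamp (ENSMUSG00000050440.8) and Hamp2 (ENSMUSG00000056978.8) lie close together on the minus strand of chromosome 7, at chr7:30942368-30944032 and chr7:30922372-30924681 in GRCm38, and each has 3 exons in its first annotated transcript. The 240-base windows upstream of their RefSeq starts (GRCm38.p6) are shown because the levels of the pair differed so widely in this tissue. The windows end 11 bases before the RefSeq start, at chr7:30944040-30944279 for Hamp and chr7:30924192-30924431 for Hamp2. The Hamp2 window lies within the GENCODE span of Hamp2, because that annotation holds a transcript with a start farther upstream than the RefSeq one. Capitals mark GGCGCC, the bone morphogenetic protein response element, and TTCNNNGAA, the STAT element, both searched on both strands, which read alike for these motifs.
Hamp: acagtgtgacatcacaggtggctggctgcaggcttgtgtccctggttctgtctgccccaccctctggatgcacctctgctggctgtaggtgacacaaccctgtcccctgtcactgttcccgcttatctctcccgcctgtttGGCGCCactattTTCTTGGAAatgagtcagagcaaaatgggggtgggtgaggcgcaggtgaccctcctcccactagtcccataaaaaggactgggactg
Hamp2: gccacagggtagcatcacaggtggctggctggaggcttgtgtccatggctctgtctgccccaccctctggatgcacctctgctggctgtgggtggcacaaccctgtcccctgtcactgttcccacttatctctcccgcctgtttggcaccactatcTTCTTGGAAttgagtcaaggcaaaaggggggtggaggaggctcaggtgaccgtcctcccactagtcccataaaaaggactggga
The aligned windows were identical at 218 of 237 bases (92.0%). Counting from 1 at the 5′ end of the Hamp window, with the Hamp base first, the substitution G145A fell within GGCGCC, which Hamp2 therefore lacked. TTCTTGGAA stood in both, 97 bases before the Hamp start and 94 bases before the Hamp2 start, and did not overlap GGCGCC. Of 32851 promoter windows of this length, 9.08% held GGCGCC and 6.77% held TTCNNNGAA. A match is a description of the letters and not evidence of binding.

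Sample totals ranged from 20689262 to 27946423 estimated counts, and levels are given in CPM, counts scaled to the effective library size. Atp4b, which checks the labels, stood at 13.1% ± 2.41 (SD, n = 3) of the control mean for ATP4B-DTR, 61.1% ± 14.6 for GIF-DTR and 6.33% ± 3.51 for GIF/ATP4B-DTR. Gif was at 702 and 2302 CPM in the controls and between 65.5 and 196 CPM in GIF-DTR. The summed chief cell markers were lower in every line, at 85866 and 192402 CPM for control, 17002 to 61995 for ATP4B-DTR, 5165 to 22636 for GIF-DTR and 2884 to 12425 for GIF/ATP4B-DTR, with 0, 4 and 4 of 6 tested markers called (1 higher and 3 lower in GIF-DTR and GIF/ATP4B-DTR). The summed level of 4 Y-linked genes was 128 CPM or more in 6 samples (both controls, ATP4B-DTR 1 and GIF/ATP4B-DTR 1 to 3). It was 4.91 CPM or less in the other 5, so that GIF-DTR and control are separated by it. Only ATP4B-DTR had samples on both sides. A fit with the Y-linked level as a term thus rests mainly on these samples, and for GIF-DTR against control it is an extrapolation. A fit to the 6 samples with Y-linked expression keeps only ATP4B-DTR 1 of that line, with its spread taken from the other groups. For GIF/ATP4B-DTR against control it keeps every sample of both groups. In controls 1 and 2 the 14 macrophage markers, of which each was detected somewhere in the series, summed to 17.2 and 97.9 CPM. Fewer cells of a type and less RNA per cell cannot be told apart in bulk tissue.

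Hamp2 was the main hepcidin transcript of this mucosa. It stood at 114 and 79.2 CPM for control 1 and 2, 2.05, 1.80 and 1.57 for ATP4B-DTR 1 to 3, 77.5, 41.2 and 44.7 for GIF-DTR 1 to 3, and 0.766, 2.01 and 1.78 for GIF/ATP4B-DTR 1 to 3. The 3 lines did not share 1 range, ATP4B-DTR and GIF/ATP4B-DTR being low and overlapping each other, and the highest GIF-DTR sample just below the lower control. The fitted log2 fold change against control was -5.74 ± 0.38 (SE) for ATP4B-DTR, -0.83 ± 0.32 for GIF-DTR and -5.99 ± 0.39 for GIF/ATP4B-DTR. The level left in ATP4B-DTR was 1.87% ± 0.245 (SD, n = 3) of the control mean. In the same samples Atp4b left 13.1% and Atp4a 22.9% ± 5.62. Hamp2 was chosen for this drop, so its place below these markers is no separate result. Slc26a7, a chloride exchanger of parietal cells, left 0.686% ± 0.474. Other parietal cell markers left far more in ATP4B-DTR, among them Kcne2 with 86.3% ± 8.71, Kcnq1 with 79.8% ± 16.7 and Slc9a4 with 85.4% ± 12.9, while Aqp4 and Cckbr stood at 134% ± 25.4 and 194% ± 63.9. In GIF-DTR, 56.3% ± 20.7 of Hamp2 and 61.1% ± 14.6 of Atp4b were left. The summed level of 11 parietal cell markers was 16976 to 18287 CPM in control, 3677 to 5226 CPM in ATP4B-DTR, 8036 to 10047 CPM in GIF-DTR and 1642 to 3028 CPM in GIF/ATP4B-DTR. Of these 11 markers, 5, 4 and 8 were called lower in the lines in that order and 0 higher. The shares of all genes called lower were 9.39%, 6.82% and 15.4%.

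Hamp was scarce in every sample. Its counts were 14.02 and 11.01 for control 1 and 2, 17, 15 and 1 for ATP4B-DTR, 29, 6 and 5 for GIF-DTR, and 10, 9 and 12 for GIF/ATP4B-DTR, or 0.0414 to 1.37 CPM. The lowest sample, ATP4B-DTR 3, was below the level of 3 counts (0.124 CPM), and the GIF-DTR samples spanned most of the range. Against control the log2 fold change was -0.32 ± 0.99 for ATP4B-DTR (edgeR adjusted p = 0.841), -0.06 ± 0.98 for GIF-DTR (0.973) and -0.60 ± 0.99 for GIF/ATP4B-DTR (0.660). Each error was larger than the difference beside it. The genes whose log2 CPM was most like that of Hamp were Hmgb1-ps2 (Pearson r 0.888 over 11 samples), Nptn (0.859) and Foxe1 (0.854). Hmgb1-ps2 stood at 0.625 CPM or less and Foxe1 at 0.124 to 0.757 CPM, near the level of 3 counts. These 3 were picked as the highest of all genes tested, so the correlations are a description and may reflect counting error.

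**Figure D1:**
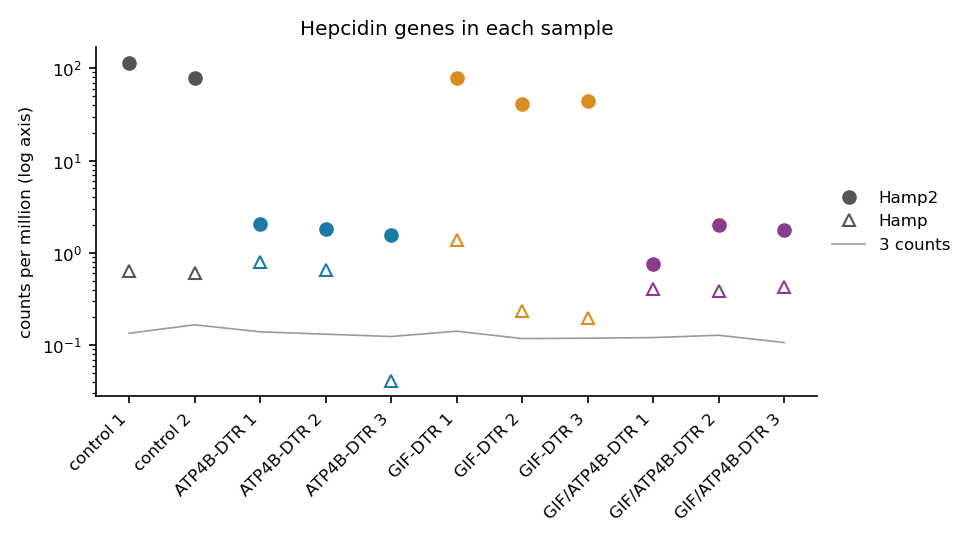
Hamp2 (filled circles) and Hamp (open triangles) in each of the 11 samples, in CPM on a log axis; the grey line is the level of 3 counts, and colours are genotypes. Hamp2 is at 41.2 CPM or more in control and GIF-DTR and at 2.05 CPM or less in the other lines, while Hamp lies at 1.37 CPM or less throughout.

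Per kilobase of transcript, the control level was 230 ± 59.1 CPM (SD, n = 2) for Hamp2 and 1.51 ± 0.0331 CPM for Hamp. Of the counts of the pair, Hamp2 took 99.5% in control 1 (95% Wilson interval 99.1 to 99.7) and 99.2% in control 2 (98.6 to 99.6). In ATP4B-DTR the share was 72.1% (59.8 to 81.8), 73.2% (60.4 to 83.0) and 97.4% (86.8 to 99.5). In GIF/ATP4B-DTR it was 65.5% (47.3 to 80.1), 83.9% (72.2 to 91.3) and 80.6% (69.1 to 88.6). In GIF-DTR it was 98.3% to 99.6%. These shares follow the level for which Hamp2 was chosen and are no separate result. The intervals cover counting error only. Whether reads moved between these genes was not tested. Both genes had fractional counts (off a whole number by more than 1e-06) in the same number of samples, 2 of 11, namely the controls.

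The 5 genes whose log2 CPM was most like that of Hamp2 over the 11 samples were Apoa1 (Pearson r 0.994), Gpr155 (0.985), Esrrb (0.984), Rnase1 (0.984) and Lpl (0.980). Apoa1 encodes the main protein of high-density lipoprotein, Esrrb an orphan nuclear receptor and Lpl lipoprotein lipase. Their remainders in ATP4B-DTR were 5.02% ± 0.806 of the control mean for Apoa1, 4.49% ± 0.574 for Gpr155, 4.15% ± 1.37 for Esrrb, 6.48% ± 0.663 for Rnase1 and 4.04% ± 0.0981 for Lpl. The points share the difference between genotypes, so the correlations are a description. Among the other members, Fth1 had the highest correlation with Hamp2 (0.851) and Ftl1, Tfrc, Slc11a2 and Cp had negative ones (-0.76, -0.70, -0.69 and -0.03).

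Ferroportin, the exporter that hepcidin acts on, fell in the lines GIF/ATP4B-DTR and ATP4B-DTR. Slc40a1 stood at 7.95 and 10.03 CPM for control 1 and 2, 3.30, 1.18 and 4.22 for ATP4B-DTR 1 to 3, 6.19, 8.61 and 11.3 for GIF-DTR 1 to 3, and 4.24, 3.803 and 2.42 for GIF/ATP4B-DTR 1 to 3. The ATP4B-DTR and GIF/ATP4B-DTR samples were all below both controls, and GIF-DTR spread around them. Against control it fell by 1.63 ± 0.45 on the log2 scale in ATP4B-DTR (edgeR adjusted p = 0.0246) and by 1.37 ± 0.44 in GIF/ATP4B-DTR (0.0342). In GIF-DTR the log2 fold change was -0.05 ± 0.45 (0.958). The call in ATP4B-DTR was lost without control 1 (adjusted p = 0.0541), control 2 (0.123) or ATP4B-DTR 1 (0.0552), and that in GIF/ATP4B-DTR without control 1 (0.0601), control 2 (0.160), GIF/ATP4B-DTR 2 (0.0677) or 3 (0.105). It was also lost in ATP4B-DTR with the Y-linked level as a term (-1.51 ± 0.64, 0.149), with only the groups compared (0.0693) and in the samples with Y-linked expression (0.119). The macrophage markers, whose cells are known for ferroportin, summed to 56.8 to 111 CPM in ATP4B-DTR, 128 to 201 CPM in GIF-DTR and 42.4 to 79.8 CPM in GIF/ATP4B-DTR. These overlap the controls in ATP4B-DTR and GIF/ATP4B-DTR, none of the 12 tested markers was called in any line, and Timd4 and Vsig4 stayed at 0.214 CPM or less. Their part in the Slc40a1 difference was not tested. The 3 genes most like Slc40a1 in log2 CPM were Vgll4 (0.959), Ylpm1 (0.947) and Chrnb2 (0.943).

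**Figure D2:**
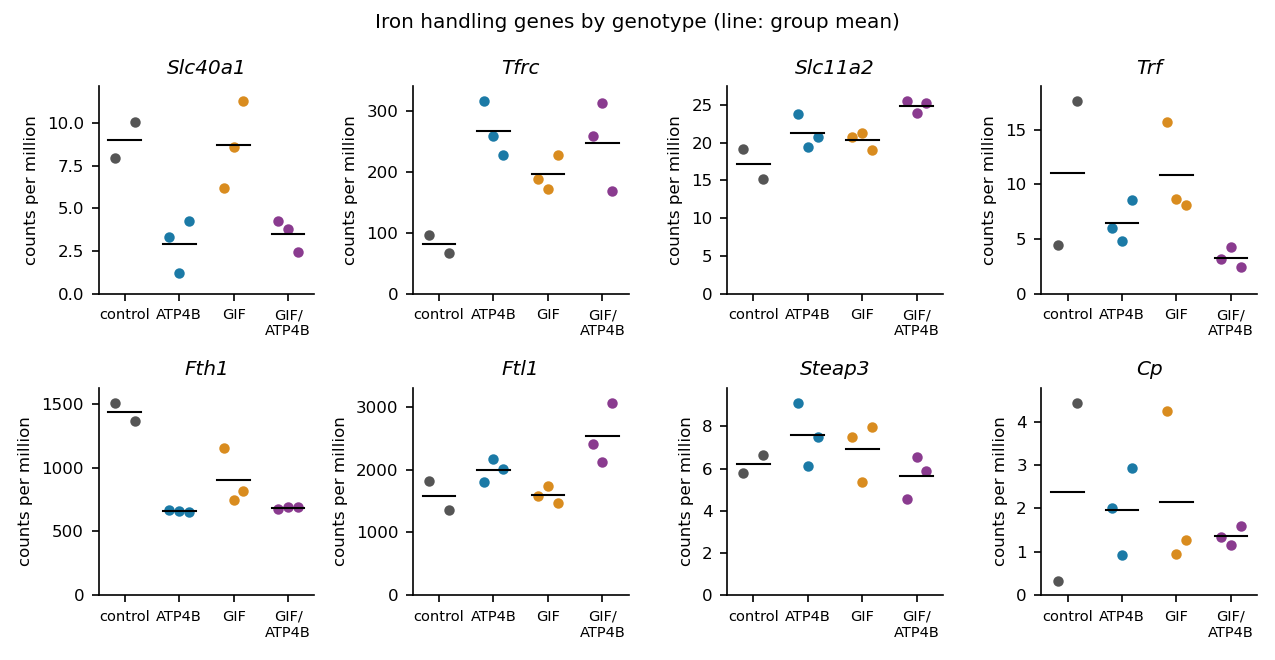
Level in CPM of 8 members in each sample, by genotype; points are samples, bars are group means, and each vertical axis starts at 0. Tfrc is above both controls in all 9 samples of the lines and Fth1 below both, while control 2 stands far above control 1 for Trf (17.6 against 4.46) and Cp (4.43 against 0.314).

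Transferrin receptor rose in each line. Tfrc stood at 96.6 and 66.1 CPM for control 1 and 2, 315, 259 and 226 for ATP4B-DTR 1 to 3, 187, 172 and 228 for GIF-DTR 1 to 3, and 258, 313 and 168 for GIF/ATP4B-DTR 1 to 3. All 9 samples of the lines were above both controls. The log2 fold change was 1.71 ± 0.28 for ATP4B-DTR (edgeR adjusted p = 0.00202), 1.27 ± 0.27 for GIF-DTR (0.0114) and 1.60 ± 0.27 for GIF/ATP4B-DTR (0.00133), which is 3.28-fold, 2.40-fold and 3.03-fold. The 3 comparisons use the same controls. The call in GIF-DTR was lost without control 2 (1.02 ± 0.33, adjusted p = 0.0901) and with the Y-linked level as a term (1.64 ± 0.41, 0.0588), where the fold was larger and its error wider. Dividing cells are known for high transferrin receptor, and 12 of 12 proliferation markers rose in each line. The sum of these markers was 287 to 383 CPM in control, 731 to 1023 CPM in ATP4B-DTR, 692 to 998 CPM in GIF-DTR and 888 to 1107 CPM in GIF/ATP4B-DTR. Their part in the Tfrc rise was not tested. The erythroid markers, from cells with the most transferrin receptor, summed to 31.9 and 66.9 CPM in control and 9.96 to 95.1 CPM in the lines, with Slc4a1 at 0.0554 CPM or less. The genes most like Tfrc were Timm22 (0.975), a mitochondrial import subunit, Pgls (0.975), a pentose phosphate enzyme, and Knstrn (0.971), a kinetochore protein.

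DMT1, which carries ferrous iron across membranes, rose in GIF/ATP4B-DTR. Slc11a2 stood at 19.2 and 15.1 CPM for control 1 and 2, 23.8, 19.5 and 20.8 for ATP4B-DTR 1 to 3, 20.8, 21.3 and 19.0 for GIF-DTR 1 to 3, and 25.5, 24.0 and 25.2 for GIF/ATP4B-DTR 1 to 3. The GIF/ATP4B-DTR samples were above every other sample. Their log2 fold change against control was 0.54 ± 0.15 (edgeR adjusted p = 0.0150), which was lost without control 2 (0.37 ± 0.18, 0.168). The values in ATP4B-DTR and GIF-DTR were 0.31 ± 0.15 (0.149) and 0.25 ± 0.15 (0.274). Slc11a2 counts were fractional in 9 of 11 samples. Ints5 (0.974), Gpsm2 (0.962) and Ppp4c (0.950) were most like it. Steap3, the endosomal ferrireductase, stood at 5.79 and 6.65 CPM for control and between 4.56 and 9.12 CPM in the lines. It overlapped control in every line, and its adjusted p-values by edgeR were 0.468 for ATP4B-DTR, 0.734 for GIF-DTR and 0.711 for GIF/ATP4B-DTR.

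The ferritin heavy chain, which carries the ferroxidase site, fell in each line. Fth1 stood at 1507 and 1364 CPM for control 1 and 2, 668, 658 and 649 for ATP4B-DTR 1 to 3, 1155, 744 and 818 for GIF-DTR 1 to 3, and 674, 693 and 687 for GIF/ATP4B-DTR 1 to 3. All 9 samples of the lines were below both controls, and the samples of ATP4B-DTR and of GIF/ATP4B-DTR each lay within 20 CPM of one another. Fth1 fell by 1.12 ± 0.18 on the log2 scale in ATP4B-DTR (edgeR adjusted p = 0.00198), by 0.66 ± 0.18 in GIF-DTR (0.0295) and by 1.07 ± 0.18 in GIF/ATP4B-DTR (0.00119). The call in GIF-DTR was lost without control 1 (adjusted p = 0.130), control 2 (0.0758), GIF-DTR 2 (0.0884) or GIF-DTR 3 (0.0989), with only the groups compared (-0.67 ± 0.22, 0.0880), and with the Y-linked level as a term (-0.63 ± 0.32, 0.293), where the fold was much the same and its error wider. In the 6 samples with Y-linked expression, where ATP4B-DTR is 1 sample, the value for ATP4B-DTR was -1.10 and not called. The sum of the parietal cell markers given above was lower in GIF-DTR than in control and lower again in ATP4B-DTR and GIF/ATP4B-DTR. Some single markers broke that order. Esrrg, Slc9a4 and Cckbr stood higher in ATP4B-DTR than in GIF-DTR. So did Slc9a4 in GIF/ATP4B-DTR (87.8% of the control mean against 74.3%). Aqp4 and Cckbr stood above control in GIF-DTR (147% and 168%) and in ATP4B-DTR. The part of the parietal cell markers in the Fth1 difference was not tested.

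The light chain, which promotes iron core formation, was called lower in no line. Ftl1 stood at 1828 and 1351 CPM for control 1 and 2, 1811, 2175 and 2014 for ATP4B-DTR 1 to 3, 1587, 1744 and 1476 for GIF-DTR 1 to 3, and 2412, 2129 and 3069 for GIF/ATP4B-DTR 1 to 3. Only the GIF/ATP4B-DTR samples were all above both controls. There Ftl1 rose by 0.67 ± 0.21 on the log2 scale (edgeR adjusted p = 0.0290). The call was lost without control 2 (0.47) or GIF/ATP4B-DTR 3 (0.52 ± 0.22, 0.0996) and with only the groups compared (0.70 ± 0.27, 0.0885). In the samples with Y-linked expression, which include every sample of this comparison, the value was 0.67 ± 0.27 and not called. The log2 fold changes in ATP4B-DTR and GIF-DTR were 0.33 ± 0.21 (0.288) and 0.01 ± 0.21 (0.976). Ftl1 counts were fractional in all 11 samples, and the cause was not tested. The pseudogene Ftl1-ps1 held 12.5 to 28.9 counts, and Ftl1-ps2 and Ftl2-ps held 2.33 or fewer, against at least 24377 counts for Ftl1 in a sample. Fth1 counts were whole in every sample.

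Per length, the ratio of Ftl1 to Fth1 was 1.16 and 0.950 for control 1 and 2, 2.60, 3.17 and 2.98 for ATP4B-DTR, 1.32, 2.25 and 1.73 for GIF-DTR, and 3.44, 2.95 and 4.29 for GIF/ATP4B-DTR. Each sample of the lines had a higher ratio than both controls, and the lowest ATP4B-DTR sample was above the highest GIF-DTR sample. The means were 1.06 ± 0.151 (SD, n = 2), 2.92 ± 0.289 (n = 3), 1.77 ± 0.466 (n = 3) and 3.56 ± 0.679 (n = 3) in the same order. The sum of both chains was 2864 and 3510 CPM per kilobase for control, 2590 to 2955 for ATP4B-DTR, 2405 to 2883 for GIF-DTR and 2946 to 3910 for GIF/ATP4B-DTR. Each line overlapped control in the sum, and GIF-DTR lay below GIF/ATP4B-DTR. No test was run on the ratio.

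**Figure D3:**
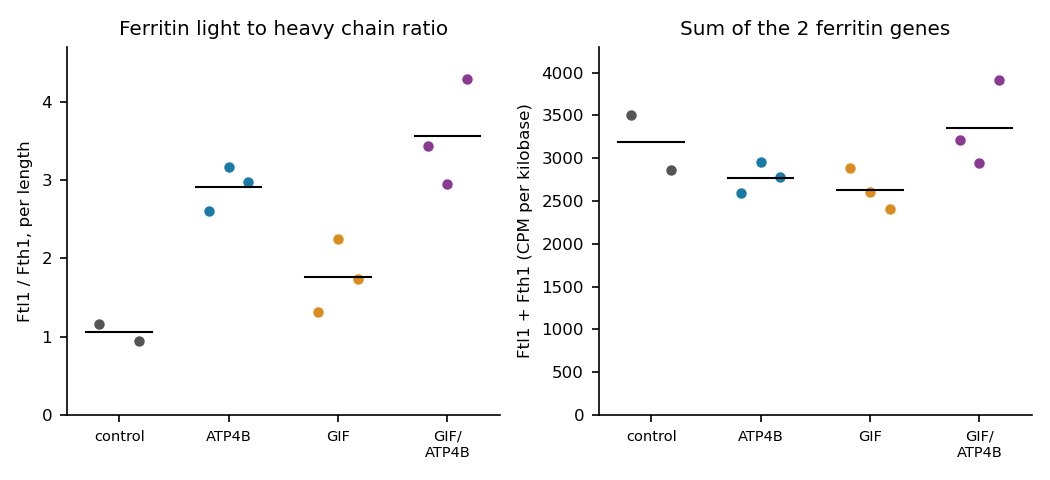
Left, ratio of Ftl1 to Fth1 after division by transcript length, and right, the sum of both genes in CPM per kilobase; points are samples, bars are group means. The ratio goes from 0.950 to 1.16 in control up to 2.95 to 4.29 in GIF/ATP4B-DTR, while the sum in each line overlaps that in control.

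The plasma iron proteins were low and uneven between the controls. Transferrin, the carrier of iron in plasma, stood at 4.46 and 17.6 CPM for control 1 and 2, 6.04, 4.83 and 8.54 for ATP4B-DTR 1 to 3, 15.7, 8.70 and 8.09 for GIF-DTR 1 to 3, and 3.15, 4.23 and 2.45 for GIF/ATP4B-DTR 1 to 3. The GIF/ATP4B-DTR samples were the lowest, though the highest of them was close to control 1. Trf fell by 1.75 ± 0.51 on the log2 scale in GIF/ATP4B-DTR (edgeR adjusted p = 0.0231). Without control 2 that value was -0.45 and not called. The call was also lost without GIF/ATP4B-DTR 1 (0.0625) or 3 (0.0768) and with only the groups compared (0.0608). In the samples with Y-linked expression, which include every sample of this comparison, the value was -1.75 and not called. In ATP4B-DTR the value was -0.76 ± 0.51 (0.315), became a call without control 1 (-1.44, 0.0444) and turned to 0.54 without control 2. In GIF-DTR it was -0.02 ± 0.51 (0.982). Trf counts were fractional in 6 of 11 samples.

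The genes most like Trf over the 11 samples were Htra1 (0.960), Emcn (0.958) and Mamdc2 (0.958). Emcn encodes endomucin of vascular endothelium, and stood at 0.359 CPM in control 1, 4.05 CPM in control 2, 0.395 to 1.57 CPM in ATP4B-DTR, 0.826 to 3.40 CPM in GIF-DTR and 0.161 to 0.598 CPM in GIF/ATP4B-DTR. The part of vessels or other non-epithelial cells in the Trf difference was not tested. The 10 hepatocyte markers, which include Apoa1, summed to 1870 and 1572 CPM for control, 100 to 118 for ATP4B-DTR, 818 to 1941 for GIF-DTR and 80.4 to 94.7 for GIF/ATP4B-DTR, and Apoa1 made up most of the control sums. Alb stood at 1.077 to 17.1 CPM and Fga and Fgb at 0.333 CPM or less in every sample, and the part of these markers in the Trf difference was not tested. Ceruloplasmin, which oxidises iron for loading onto transferrin, stood at 0.314 and 4.43 CPM for control and 0.921 to 4.26 CPM in the lines. Its adjusted p-values by edgeR were 0.860 for ATP4B-DTR, 0.942 for GIF-DTR and 0.524 for GIF/ATP4B-DTR, with standard errors of 0.90 on the log2 scale. The genes most like Cp were Cdh11 (0.949), a mesenchymal cadherin, Nkx3-2 (0.946) and Ccdc85b (0.937). Nkx3-2 stood at 0.0449 to 0.615 CPM, near the level of 3 counts.

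Among the 9 members other than Hamp2, 3 were called against control in ATP4B-DTR, where edgeR called 21.6% of all 14889 genes tested. Tfrc rose, against 12.2% of genes called higher, and Slc40a1 and Fth1 fell, against 9.39% called lower. In GIF-DTR 2 of 9 were called, with Tfrc higher and Fth1 lower, against 16.8% of all genes (9.97% higher and 6.82% lower). In GIF/ATP4B-DTR 6 of 9 were called against 33.6% of all genes: Tfrc, Slc11a2 and Ftl1 rose (18.2% of genes called higher) and Slc40a1, Fth1 and Trf fell (15.4% called lower). With so few members, the counts of 3 and 2 in ATP4B-DTR and GIF-DTR are near these background shares. In GIF-DTR 1 of 9 was called without control 1, GIF-DTR 2 or GIF-DTR 3, where 7.31%, 10.9% and 7.34% of all genes were called. In GIF/ATP4B-DTR 3 of 9 were called without GIF/ATP4B-DTR 3, against 27.5% of all genes. Without control 2 the counts were 2, 0 and 2 of 9, against 8.51%, 5.63% and 18.6% of all genes. In the 6 samples with Y-linked expression 1 of 9 was called in ATP4B-DTR, against 6.02% of all genes. The shares of all genes called thus fell under these settings as well.

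**Figure D4:**
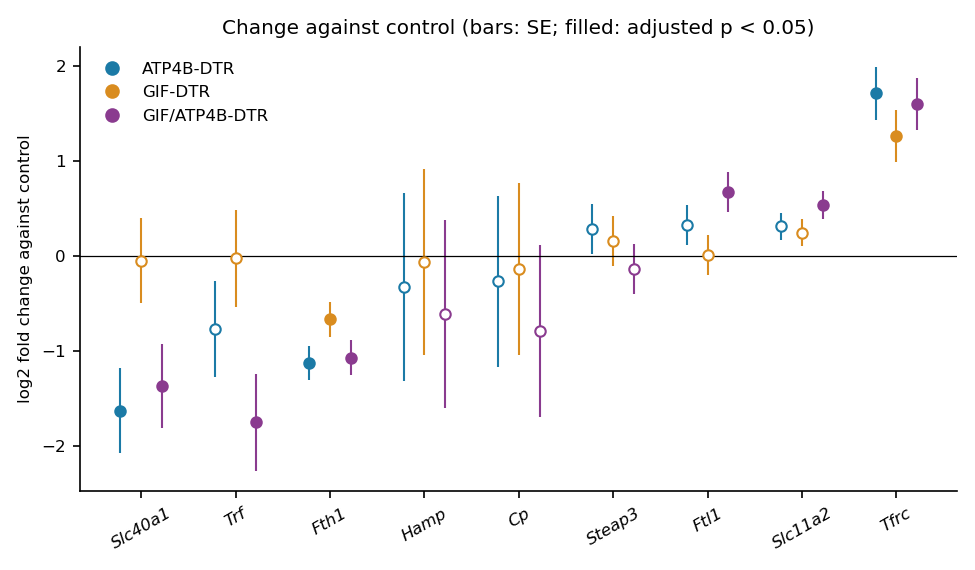
Log2 fold change against control of the 9 members other than Hamp2 in the 3 lines, with standard errors as bars; filled points passed an adjusted p of 0.05. Tfrc (1.27 to 1.71) and Fth1 (-1.12 to -0.66) are filled in each line, and Hamp, Cp and Steap3 in none.

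Of the 9 members other than Hamp2, edgeR called none between the lines. Between GIF-DTR and ATP4B-DTR 0 of 9 were called, against 0.490% of all genes (0.403% higher and 0.0873% lower), while 2 of 9 (Slc40a1 and Fth1) and 9.81% of all genes had an unadjusted p under 0.05. Between GIF/ATP4B-DTR and ATP4B-DTR 0 of 9 were called, against 0% of all genes, and 0 of 9 and 10.4% of all genes had an unadjusted p under 0.05. Between GIF/ATP4B-DTR and GIF-DTR 0 of 9 were called, against 2.53% of all genes (0.336% higher and 2.19% lower), and 5 of 9 (Slc40a1, Slc11a2, Trf, Fth1 and Ftl1) and 18.04% of all genes had an unadjusted p under 0.05. By DESeq2, 2.58% of all genes were called between GIF-DTR and ATP4B-DTR, 1.97% between GIF/ATP4B-DTR and ATP4B-DTR and 6.75% between GIF/ATP4B-DTR and GIF-DTR. Among the members it called Slc40a1 lower in ATP4B-DTR than GIF-DTR, with a log2 fold change from the first to the second of 1.58 (adjusted p = 0.0114). It also called Slc40a1 lower (-1.31, 0.0293), Trf lower (-1.72, 0.00764) and Ftl1 higher (0.67, 0.00220) in GIF/ATP4B-DTR than in GIF-DTR, and 0 of the 9 between GIF/ATP4B-DTR and ATP4B-DTR. With edgeR, Trf was called between GIF/ATP4B-DTR and GIF-DTR with only the groups compared (adjusted p = 0.0379), without control 1 (0.0229) and without control 2 (0.0236), and Slc40a1 without ATP4B-DTR 2 (0.0467).

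The wider iron pathway was read from 5 lists holding 101 genes, of which 92 could be tested. In ATP4B-DTR 22 of 92 were called (11 higher and 11 lower), in GIF-DTR 18 (9 and 9) and in GIF/ATP4B-DTR 39 (20 and 19), or 23.9%, 19.6% and 42.4% of the genes tested. These shares are near the background shares of 21.6%, 16.8% and 33.6%. The median log2 fold changes were -0.04, -0.05 and -0.15, and those of all genes tested -0.02, -0.01 and -0.04. Without control 2, where the background shares fell to 8.51%, 5.63% and 18.6%, the counts were 12, 5 and 22, and 11, 5 and 20 of the genes called on all samples kept their call. In GIF-DTR 5 of the 18 kept it without control 1, 9 without GIF-DTR 2 and 3 without GIF-DTR 3, and the share of all genes called there fell to 7.31%, 10.9% and 7.34%. With the Y-linked level as a term 2 of those 18 kept their call, and 3.30% of all genes were called. Genes named below from counts of 5 or fewer were chosen after their values were seen.

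Of 22 regulators of hepcidin, 18.2%, 18.2% and 31.8% were called in either direction in ATP4B-DTR, GIF-DTR and the combined line. These are near the 21.6%, 16.8% and 33.6% of all genes. Called lower were 4 of 22 in each line, against 9.39%, 6.82% and 15.4% of all genes. In ATP4B-DTR 4 of 22 fell and 0 rose: Neo1 (neogenin), Acvr1 and Bmpr2 (receptors for bone morphogenetic proteins) and Il6st (the gp130 chain that passes on interleukin 6). Neo1 stood at 142 to 162 CPM in control and fell by 1.19 ± 0.14 on the log2 scale to 59.7 to 76.8 CPM (edgeR adjusted p = 0.000451). In GIF-DTR 4 fell and 0 rose: Neo1 (-0.77 ± 0.14, 0.00572), Il6st, Bmpr1a and Il6ra, the interleukin 6 receptor (-1.08 ± 0.31, 0.0356). In GIF/ATP4B-DTR the 4 that fell were those of ATP4B-DTR, and Hfe, Erfe and Id1 rose. Of these, Id1 kept its call in 10 of 20 alternatives, Hfe in 14 and Erfe in 19. Acvr1 kept its call in 12 of 20 in ATP4B-DTR and 17 of 20 in GIF/ATP4B-DTR, Bmpr2 in 18 of 20 in ATP4B-DTR, and Bmpr1a in 11 of 19 in GIF-DTR. Il6st lost its call in GIF-DTR without control 1 (adjusted p = 0.0597), control 2 (0.0833), GIF-DTR 2 (0.0511) or GIF-DTR 3 (0.0581) and with the Y-linked level as a term (0.0956), and in ATP4B-DTR in the samples with Y-linked expression (0.0597). Erfe, the erythroid hormone that lowers hepcidin, stood at 0.554 to 3.99 CPM across the samples. Il6ra lost its call without control 1 (adjusted p = 0.122), control 2 (0.115), GIF-DTR 1 (0.0700), GIF-DTR 3 (0.106) or GIF/ATP4B-DTR 3 (0.0505), and with the Y-linked level as a term (0.114). The liver-type sensors Tfr2 and Tmprss6 stood at 0.373 CPM or less and Hjv was at 0 in all samples, so none of these could be tested.

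Among 16 tested genes of iron uptake, storage and export, 2 rose and 3 fell in ATP4B-DTR, 1 rose and 2 fell in GIF-DTR, and 4 rose and 4 fell in GIF/ATP4B-DTR. These are 31.2%, 18.8% and 50% of the list, against 21.6%, 16.8% and 33.6% of all genes. Slc39a8, a zinc transporter that also carries iron, stood at 0.314 and 2.05 CPM for control and between 3.203 and 14.4 CPM in the lines, above both controls in every sample. Its log2 fold change was 2.60 ± 0.76 for ATP4B-DTR (edgeR adjusted p = 0.0354), 2.70 ± 0.77 for GIF-DTR (0.0386) and 3.01 ± 0.77 for GIF/ATP4B-DTR (0.0136). All 3 calls were lost without control 1 (1.77, 1.87 and 2.19, with adjusted p-values of 0.134, 0.150 and 0.0541). Those in ATP4B-DTR and GIF-DTR were also lost with no filter on low counts (0.0832 and 0.0850), with only the groups compared (0.120 and 0.0614), and on leaving out GIF-DTR 2, GIF-DTR 3, GIF/ATP4B-DTR 2 or ATP4B-DTR 3. The call in ATP4B-DTR was lost without ATP4B-DTR 1 (0.0962) and in the samples with Y-linked expression (0.108), and that in GIF-DTR without GIF-DTR 1 (0.0614) and with the Y-linked level as a term (0.0643). Pcbp1, an iron chaperone, also rose in ATP4B-DTR, and Slc39a14, Steap2 and Mcoln1 fell, of which Steap2 and Mcoln1 fell in GIF-DTR. Pcbp1 kept its call in 11 of 20 alternatives in ATP4B-DTR and 6 of 20 in GIF/ATP4B-DTR, and Mcoln1 kept it in 18 of 20 in ATP4B-DTR, in 12 of 19 in GIF-DTR and in 16 of 20 in the combined line. Steap2 lost its call in 4 of 20 alternatives in ATP4B-DTR, 4 of 19 in GIF-DTR and 1 of 20 in GIF/ATP4B-DTR, among them without control 1 (adjusted p = 0.163, 0.178 and 0.0730). Slc39a14 lost its call in 3 of 20 in ATP4B-DTR, among them without control 1 (0.0720). In GIF/ATP4B-DTR, Slc39a8, Steap1, Pcbp1 and Tmem199 rose, and Slc39a14, Steap2, Mcoln1 and Slc22a17, the lipocalin 2 receptor, fell. Tmem199 kept its call in 16 of 20 alternatives and Steap1 in 19. Slc22a17 stood at 4.90 and 8.37 CPM in control and 1.10 to 1.65 CPM in GIF/ATP4B-DTR, a fall by 2.21 ± 0.40 (0.00180).

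Of 7 iron and oxygen sensing genes, 2 were called for ATP4B-DTR, 3 for GIF-DTR and 4 for GIF/ATP4B-DTR (28.6%, 42.9% and 57.1%, against 21.6%, 16.8% and 33.6% of all genes). Epas1 and Egln1 fell in each line, though Egln1 lost its call in GIF-DTR in 5 of 19 alternatives, without control 1 (adjusted p = 0.0847), control 2 (0.0649), GIF-DTR 2 (0.0555) or GIF-DTR 3 (0.0586) and with the Y-linked level as a term (0.129). Epas1, the HIF2 subunit that drives iron absorption genes in the gut, stood at 95.9 and 91.4 CPM in control, 22.7 to 37.3 CPM in ATP4B-DTR, 21.5 to 33.7 CPM in GIF-DTR and 21.4 to 34.3 CPM in GIF/ATP4B-DTR. It fell by 1.64 ± 0.25, 1.67 ± 0.25 and 1.71 ± 0.25 on the log2 scale, with edgeR adjusted p-values of 0.00174, 0.00260 and 0.000605. Aco1, which encodes iron regulatory protein 1, fell in GIF-DTR (-0.50 ± 0.14, 0.0343) and GIF/ATP4B-DTR (-0.60 ± 0.14, 0.00729). Its value in ATP4B-DTR was -0.40 ± 0.14 (0.0641). Aco1 lost both calls without control 1, and that in GIF-DTR without any 1 of the GIF-DTR samples, with only the groups compared (0.0587) and with the Y-linked level as a term. Fbxl5, which targets iron regulatory protein 2 for degradation, rose in GIF/ATP4B-DTR (0.37 ± 0.13, 0.0426), a call lost without any 1 of 9 of the 11 samples. Ireb2, the gene of that protein, was not called in any line.

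**Figure D5:**
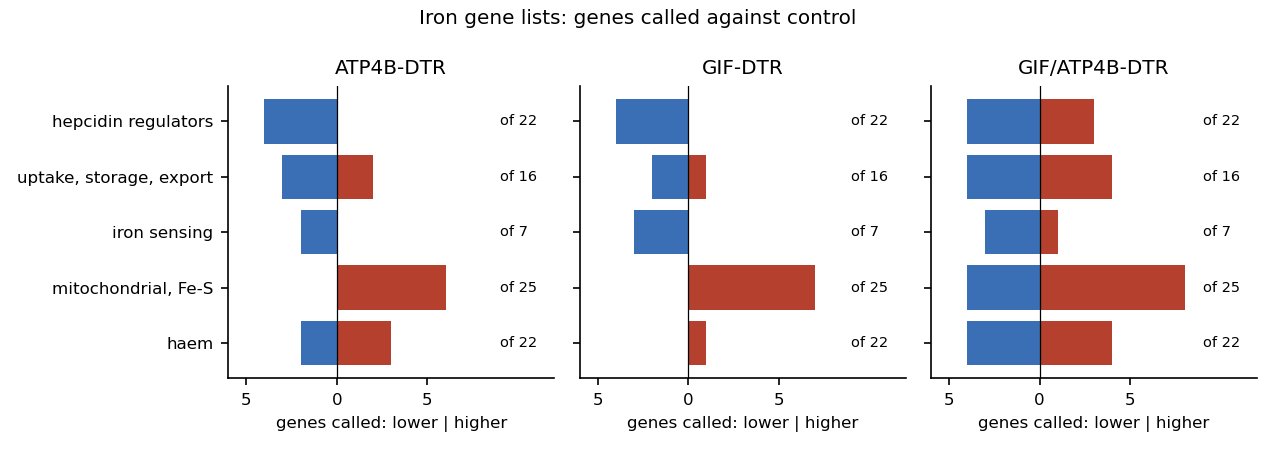
Number of genes called lower (blue, left of 0) and higher (red, right of 0) against control in each of 5 iron gene lists, for the 3 lines; the number at the right of each row is the number tested. The 25 mitochondrial and iron-sulphur genes have 6, 7 and 8 genes called higher, where 12.2%, 9.97% and 18.2% of all genes were. With the Y-linked level as a term the 7 in GIF-DTR lost their call. The 22 hepcidin regulators have 4 called lower in each line, where 9.39%, 6.82% and 15.4% of all genes were.

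Among 25 tested genes of mitochondrial iron and iron-sulphur cluster assembly, 6 rose and 0 fell in ATP4B-DTR, 7 rose and 0 fell in GIF-DTR, and 8 rose and 4 fell in GIF/ATP4B-DTR. These are 24%, 28% and 48% of the list, against 21.6%, 16.8% and 33.6% of all genes, of which 12.2%, 9.97% and 18.2% were called higher. Ciapin1, a cytosolic cluster assembly factor, stood at 23.8 and 20.6 CPM in control and 44.4 to 58.9 CPM in ATP4B-DTR (1.20 ± 0.19, edgeR adjusted p = 0.00158). Lyrm4, a partner of the cysteine desulphurase, stood at 7.86 and 8.15 CPM in control and 13.2 to 15.7 CPM in GIF-DTR (0.81 ± 0.18, 0.0147). Lyrm4 lost its call in GIF-DTR without control 1 (0.0823) or control 2 (0.0758), and with the Y-linked level as a term (0.0696). The 4 that fell in GIF/ATP4B-DTR were Isca1, Isca2, Fdxr and Mms19, of which Isca1 kept its call in 9 of 20 alternatives and Fdxr in 13. The list's median log2 fold changes were 0.14, 0.13 and 0.15.

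Hmox1, or haem oxygenase 1, which opens the haem ring and frees its iron, rose in ATP4B-DTR and GIF/ATP4B-DTR. It stood at 16.7 and 10.03 CPM for control, 29.3, 35.1 and 23.1 for ATP4B-DTR, 14.0, 19.0 and 10.5 for GIF-DTR, and 26.1, 35.5 and 41.0 for GIF/ATP4B-DTR. It rose against control in ATP4B-DTR (1.12 ± 0.31, edgeR adjusted p = 0.0246) and GIF/ATP4B-DTR (1.35 ± 0.31, 0.00661), with 0.11 ± 0.30 (0.841) in GIF-DTR. It was the 1 pathway gene of 92 (1.09%, against 2.53% of all genes) that edgeR called between GIF/ATP4B-DTR and GIF-DTR. Its log2 fold change from GIF-DTR to GIF/ATP4B-DTR was 1.24 ± 0.27 (edgeR adjusted p = 0.0359). DESeq2 called 5 pathway genes there, Hmox1 among them, against 6.75% of all genes. The biliverdin reductases Blvra and Blvrb also rose in ATP4B-DTR, and Blvrb rose in GIF/ATP4B-DTR by 1.26 ± 0.21 (0.000952). The haem list had 3 genes higher and 2 lower of 22 in ATP4B-DTR, 1 higher (Blvra) in GIF-DTR, and 4 higher and 4 lower in GIF/ATP4B-DTR. These are 22.7%, 4.55% and 36.4% of the list, against 21.6%, 16.8% and 33.6% of all genes. Blvra kept its call in GIF-DTR in 6 of 19 alternatives, and Urod in ATP4B-DTR in 8 of 20. In ATP4B-DTR Blvra and Blvrb each kept it in 18 of 20 and lost it without control 2 (adjusted p = 0.0730 and 0.0794). The 2 that fell in ATP4B-DTR were Urod, of haem synthesis, and Lrp1, the receptor for haem bound to hemopexin, which fell by 1.20 ± 0.30 in ATP4B-DTR (0.0173) and GIF/ATP4B-DTR (0.0110). Lrp1 lost both calls without control 1 (adjusted p = 0.112 and 0.0807), and Hmox1 lost both without control 2 (0.181 and 0.0731). In ATP4B-DTR Hmox1 also lost it without ATP4B-DTR 1 (0.0556) or 2 (0.0710), with the Y-linked level as a term (0.0813) and in the samples with Y-linked expression (0.102). The call between the lines was lost without GIF-DTR 1 (0.124) or 3 (0.129), GIF/ATP4B-DTR 2 (0.0906) or 3 (0.139) or ATP4B-DTR 1 (0.0550), and with the Y-linked level as a term (1.17 ± 0.51, 0.727).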

How the data were processed

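The authors deposited estimated counts per gene, which are expected counts since 30.7% of nonzero values are fractional (off a whole number by more than 1e-06); genome build mm10 is named per the submitters' processing notes, and the aligner, counter and annotation are not given in the sources used here. Libraries were stranded and made from mRNA, per the labels' protocols. Gene symbols matched 34582 of 34866 identifiers. The planned design assumed whole counts, so estimated counts were rounded before fitting.

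edgeR 4.0.16 (R 4.3.3) fitted a robust quasi-likelihood model with 1 coefficient per group to all 11 samples, after filterByExpr and TMM scaling. P-values were adjusted by Benjamini-Hochberg over 14889 genes, and an adjusted p under 0.05 is a call. SE is the log2 fold change over the square root of F. The scripts were tested on simulated data. DESeq2 1.42.0 was an alternative. Depth limits levels to 3 counts, between 0.107 and 0.166 CPM, and PCR copies are not independent.

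The members and lists were chosen with earlier results of these data known. Named pathway genes are the 3 highest and 3 lowest log2 fold changes among called genes with at least 5 CPM in the higher group. A gene that meets this rule is not reported here. Alternatives were other scalings, filters and tests, unrounded counts, the Y-linked level as a term, only the groups compared, and leaving out each sample. The split by Y-linked expression was added after seeing the data.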

Additional observations from a re-analysis of the deposited data

Results flagged for a closer look

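Hmox1 differed between the lines under the same contrast with control. Its log2 fold change from GIF-DTR to GIF/ATP4B-DTR, which is the difference of their changes against the shared controls, was 1.24 ± 0.27 (edgeR adjusted p = 0.0359), and each of the 3 GIF/ATP4B-DTR samples was above each of the 3 GIF-DTR samples. Without GIF-DTR 1 or 3, or GIF/ATP4B-DTR 2 or 3, the adjusted p was 0.124, 0.129, 0.0906 and 0.139, without ATP4B-DTR 1 it was 0.0550, and with the Y-linked level as a term 0.727, where the log2 fold change was 1.17 ± 0.51.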

How the results depend on the processing

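No paired analysis was possible because the replicate numbers of the lines follow accession order and pair no samples. The 9 members other than Hamp2 gave 27 log2 fold changes against control, and over 525 recomputed values 471 kept direction and call, 29 lost a call, 1 gained one and 24 turned direction, of which 0 had been called. Fits without a control rest on 1 control, which is assumed to vary like the other groups. Hamp and Cp have no value with at least 10 counts in every sample, and GIF-DTR has none in the samples with Y-linked expression. Hamp had 29 counts or fewer in each sample and varied widely within groups.

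Counts of members called moved as follows. In GIF-DTR against control 0 were called with the Y-linked term and 1 with only the groups compared, and leaving out samples gave 0 to 2. In ATP4B-DTR 1 was called in the samples with Y-linked expression. In GIF/ATP4B-DTR leaving out samples gave 2 to 6. Between GIF-DTR and ATP4B-DTR DESeq2 called 1. Between GIF/ATP4B-DTR and GIF-DTR DESeq2 called 3, the groups compared alone gave 1 (Trf) and leaving out samples gave 0 to 1.

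Counts of pathway genes called moved too. In ATP4B-DTR there were 8 in the samples with Y-linked expression, and 12 to 23 on leaving out samples. In GIF-DTR there were 3 with the Y-linked term and 3 to 18 on leaving out samples, and in GIF/ATP4B-DTR 22 to 38. Between GIF-DTR and ATP4B-DTR DESeq2 called 4, no filter on low counts gave 1, and leaving out samples gave 0 to 1. Between GIF/ATP4B-DTR and GIF-DTR there were 5 by DESeq2, 2 with DESeq2 size factors, 2 with no filter, 2 with at least 10 counts in every sample, 0 with the Y-linked term and 0 to 2 on leaving out samples.

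Calls over all genes moved under the same settings. Leaving out samples gave 8.51% to 22.4% of all genes for ATP4B-DTR, 5.63% to 17.7% for GIF-DTR and 18.6% to 34.0% for GIF/ATP4B-DTR against control, 0.114% to 0.942% between GIF-DTR and ATP4B-DTR, and 1.078% to 2.54% between GIF/ATP4B-DTR and GIF-DTR. The share was 3.30% for GIF-DTR with the Y-linked term, 15.9% with only the groups compared, and 6.02% for ATP4B-DTR in the samples with Y-linked expression. Between GIF-DTR and ATP4B-DTR it was 2.58% by DESeq2 and 0.459% with no filter. Between GIF/ATP4B-DTR and GIF-DTR it was 6.75% by DESeq2, 2.62% with its size factors, 1.85% with no filter, 3.39% with at least 10 counts, 0.101% with the Y-linked term and 2.27% with only the groups compared.

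The values that turned direction were near 0 or unevenly spread. Ftl1 in GIF-DTR became -0.0014 with DESeq2 and with its size factors, -0.16 with the Y-linked term, and -0.19 to 0.25 on leaving out samples. Hamp in ATP4B-DTR became 0.34 with the Y-linked term, 0.35 in samples with Y-linked expression and -0.84 to 0.22 on leaving out samples, and in GIF-DTR 1.19 and -1.49 to 0.35. Slc40a1 in GIF-DTR became 0.14 with the Y-linked term and -0.29 to 0.14 on leaving out samples. On leaving out samples Trf ran from -1.44 to 0.54 in ATP4B-DTR and from -0.70 to 1.28 in GIF-DTR, and Cp from -1.18 to 2.61 in ATP4B-DTR, -1.09 to 2.75 in GIF-DTR and -1.69 to 2.10 in GIF/ATP4B-DTR. For settings other than fewer samples or genes, the cause was not tested.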
